A study of Caenorhabditis elegans with 24 samples.

Results

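Metallothioneins, ferritins and the proteins that import iron and heme were followed through 8 genes of Caenorhabditis elegans: the metallothioneins mtl-1 and mtl-2, the ferritins ftn-1 and ftn-2, the metal importer smf-3, the cytosolic aconitase aco-1, and the heme transporters hrg-1 and hrg-4. The genes were chosen by their WormBase symbols, and all 8 were found among the 19669 genes counted. Messenger RNA (mRNA) and ribosome footprints, the mRNA stretches that ribosomes cover, were sequenced from whole adult worms. The animals were wild type (WT, strain N2) or mutants with C38D4.9 deleted, the gene metl-5, which encodes an enzyme known to methylate ribosomal RNA. Both strains were sampled at 20 °C, an ordinary growth temperature, and at 37 °C, a strong heat stress, with 3 libraries for each strain, temperature and assay (8 groups, 24 libraries). No other allele or agent is given in the labels, and neither the length of the heat exposure nor whether the mutant is a single line is stated in them. They do not say that replicates were separate cultures, so every p-value here rests on the spread among these libraries, part of which may be technical.

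Metals are needed by many enzymes but are toxic when free, and cells balance their uptake, storage and binding. Metallothioneins are small cysteine-rich proteins that bind zinc, copper and cadmium, and both worm genes are known to be induced by cadmium and by heat shock, mtl-2 mainly in the intestine. Ferritin cages store iron, SMF-3 brings iron and other divalent metals into intestinal cells, and ACO-1 is the worm counterpart of mammalian iron regulatory protein 1. Worms cannot make heme and take it up from food, with HRG-4 importing it at the surface of intestinal cells and HRG-1 moving it out of internal compartments.

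The 12 mRNA libraries held 15522050 to 17239906 gene counts each. Footprint libraries held 11503305 to 19012050 at 20 °C and 4410194 to 10947947 at 37 °C. The lowest was WT 37 °C replicate 1, where 34.8% of reads were unmapped, against 2.22 to 6.78% in the other footprint libraries. Levels are written as CPM, a library's counts for a gene per 1000000 of its gene counts, scaled by trimmed means (TMM). The deleted gene metl-5 was at 5.73 to 12.04 CPM of mRNA in the WT libraries and at 1.51 to 4.29 CPM in the mutant libraries, so reads remained in the mutant. In footprints, the libraries labelled metl-5 37 °C replicates 2 and 3 held 7.76 and 5.30 CPM of metl-5, within the WT range of 4.43 to 8.13 CPM. These 2 libraries, WT 20 °C replicate 2 and WT 37 °C replicate 3 held counts of genes that otherwise marked one strain. A further 2 footprint libraries stood between the temperatures. The heat shock gene hsp-70 was at 4854 CPM in metl-5 20 °C replicate 2, against 27.5 and 11.8 CPM in its group, and at 6686 CPM in WT 37 °C replicate 2, against 16439 and 23522 CPM.

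Per base of exon, the mRNA levels of these 8 genes in WT at 20 °C lay above those of 40.9% to 98.8% of genes. In WT at 20 °C the mRNA level of mtl-2 per length was 624 ± 413 RPKM (CPM per kilobase of exon; mean ± SD, n = 3), above that of 98.8% of 19568 genes. ftn-2 followed with 518 ± 186 RPKM, and the libraries of mtl-2 and ftn-2 overlapped. aco-1 was at 40.4 ± 5.04 RPKM and hrg-4 at 18.3 ± 4.15, each apart from its neighbours in the order. The levels per length of hrg-1 (9.81 ± 6.39 RPKM), ftn-1 (3.75 ± 3.99) and mtl-1 (1.91 ± 0.642) overlapped from one to the next. smf-3 was lowest at 0.752 ± 0.274 RPKM of mRNA, above 40.9% of genes. Within each pair of related genes, 1 gene dominated: mtl-2 stood far above mtl-1, and ftn-2 far above ftn-1, in every group and assay.

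The order of mRNA levels per length changed at 37 °C. In WT, ftn-2 came first with 543 ± 133 RPKM, followed without overlap by mtl-2 at 208 ± 89.2 and aco-1 at 54.5 ± 16.6. hrg-4 moved from the fourth place to the seventh, at 1.87 ± 0.549 RPKM of mRNA, where it overlapped mtl-1 above it. In metl-5 worms at 37 °C the mRNA levels per length were 463 ± 42.2 RPKM for ftn-2, 146 ± 93.0 for mtl-2 and 53.8 ± 12.5 for aco-1, the last 2 overlapping, with hrg-4 again seventh at 1.63 ± 0.584. By footprints per length, ftn-2 was first in all 4 combinations of strain and temperature, with 812 ± 190 RPKM in WT at 20 °C and 357 ± 191 at 37 °C. mtl-2 was second in footprints per length, at 273 ± 137 RPKM in WT at 20 °C and 85.3 ± 66.7 at 37 °C, followed by aco-1 at 116 ± 20.7 and 36.9 ± 31.9, with overlap of this pair at 37 °C.

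**Figure D1:**
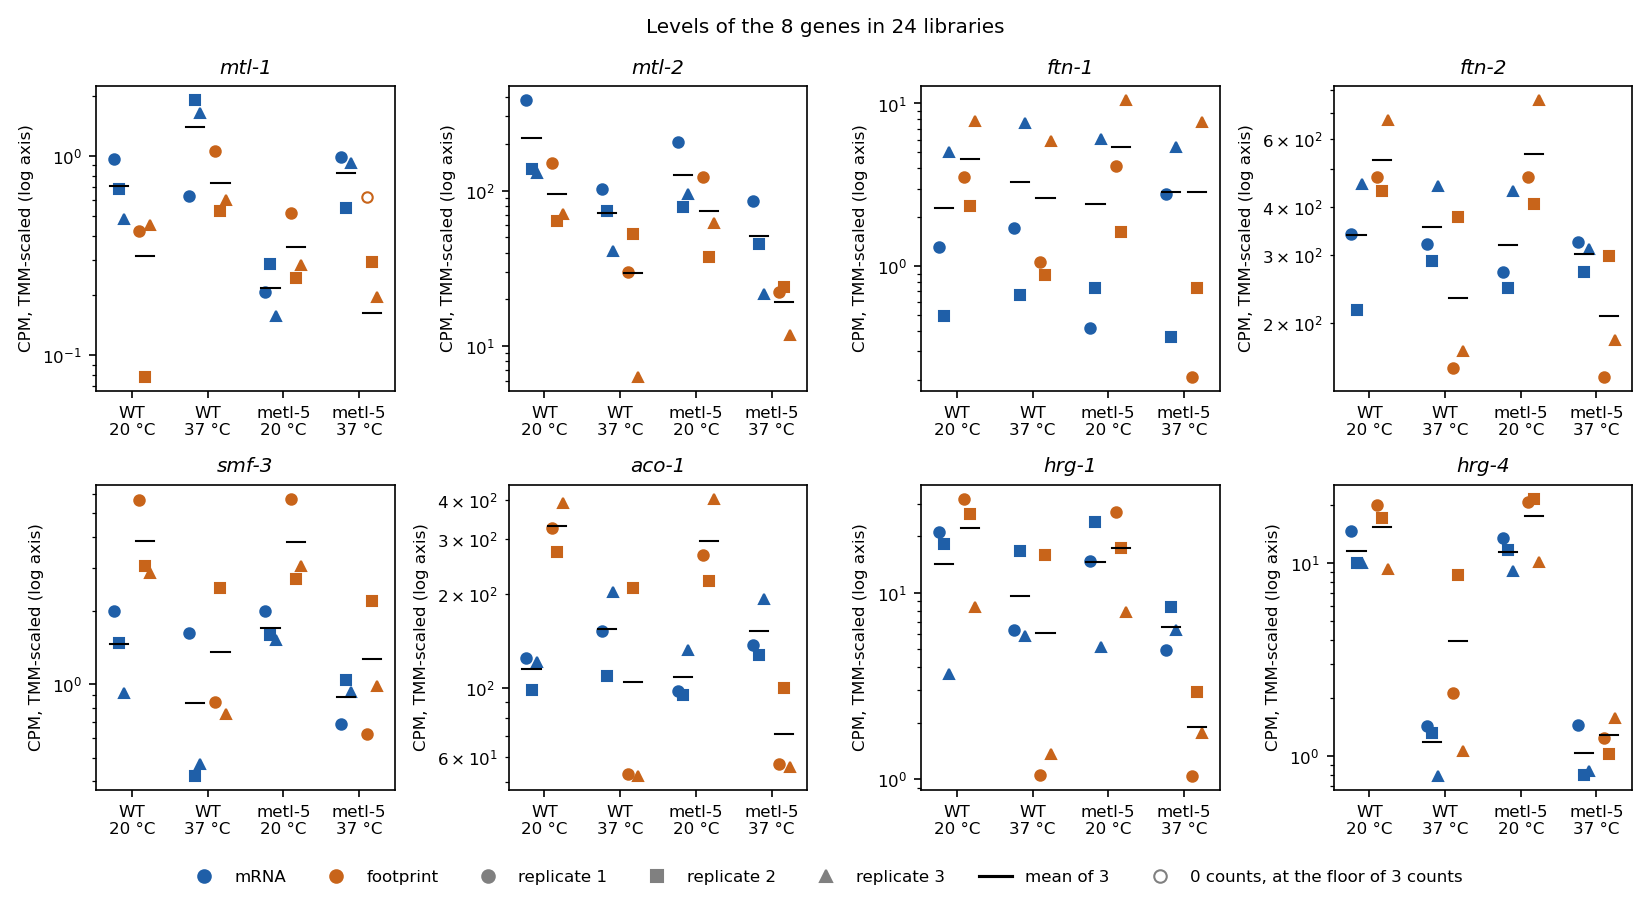
Levels of the 8 genes in each library, in TMM-scaled CPM on log axes, with mRNA in blue, footprints in orange, a marker shape for each replicate number and a bar at the mean of the 3 libraries. The footprints of aco-1 span 220 to 403 CPM at 20 °C and 52.0 to 209 CPM at 37 °C, while its mRNA spans 95.0 to 132 CPM at 20 °C and 109 to 202 CPM at 37 °C.

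The first question was how heat changed each gene. Differences are log2 values, 37 minus 20 °C, with the SE of edgeR's quasi-likelihood test, and p-values are adjusted by Benjamini and Hochberg over all genes tested in that assay. In footprints, the differences of all 7 genes tested were negative in both strains, whereas 51.4% of all genes were negative in WT and 52.2% in metl-5. The gene left out, mtl-1, had too few footprints to be tested, and its few WT footprints were higher at 37 °C. The median footprint difference of the 7 genes was -1.65 in WT and -1.92 in metl-5, against medians of -0.03 and -0.05 over all genes. Of these, 2 genes passed the test as lower in WT (6.93% of all genes did) and 5 in metl-5 (14.7%). The share of all genes that passed as higher was 9.78% in WT and 12.2% in metl-5, and 0 of the 7 genes were among them. In mRNA, 2 of 8 genes passed as lower in WT (8.50% of all genes) and 1 in metl-5 (9.16%), with 0 of 8 higher (9.76% and 10.8% of all genes). The median mRNA difference of the 8 genes was -0.25 in WT and -0.51 in metl-5. Samples were whole animals, so fewer cells of a type and less RNA per cell cannot be told apart.

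The metallothionein mtl-2 (WBGene00003474; WBcel235 chromosome V, 14018270 to 14018673, minus strand) had mRNA levels of 382, 138 and 130 CPM in WT replicates 1, 2 and 3 at 20 °C. At 37 °C these were 103, 73.5 and 40.7 CPM, and the WT groups did not overlap. The mRNA thus fell by 1.59 ± 0.52 on the log2 scale in WT (adjusted p = 0.0445, edgeR, n = 3 libraries per group). In metl-5 worms the levels were 204, 78.7 and 94.5 CPM at 20 °C and 85.4, 45.2 and 21.6 CPM at 37 °C, which overlap, and the log2 difference of -1.31 ± 0.52 did not pass (adjusted p = 0.0845). Every library at 37 °C was below the library of the same number at 20 °C in both strains. The WT call was lost without WT 20 °C replicate 1 (log2 difference -0.87, adjusted p = 0.234) and without any one of the 3 WT libraries at 37 °C (adjusted p = 0.0588, 0.0710 and 0.168). In metl-5 the fall passed in 5 of 19 other settings and missed in 14. It passed with DESeq2 (adjusted p = 0.0388) and, by edgeR, with no scaling factor (0.0122) or no filter (0.0300). It also passed without metl-5 37 °C replicate 1 (0.0409) and with replicate number as a block (-1.39, adjusted p = 0.000815). Same-numbered mRNA libraries paired only in part between temperatures. The metl-5 heat difference minus that of WT was 0.28 ± 0.72 (unadjusted p = 0.706, edgeR).

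Footprints of mtl-2 were at 149, 63.4 and 71.1 CPM in WT at 20 °C and at 29.9, 52.6 and 6.33 CPM at 37 °C. In metl-5 worms they were at 122, 37.4 and 61.4 CPM at 20 °C and at 22.2, 24.02 and 11.8 CPM at 37 °C. The temperatures did not overlap in either strain. The footprints fell by 1.92 ± 0.64 in log2 in metl-5 (adjusted p = 0.0418, edgeR, n = 3 per group), and the WT difference was -1.67 ± 0.63 (adjusted p = 0.0747). The translational efficiency of mtl-2, its footprints relative to its mRNA, differed by -0.06 ± 0.86 in WT and -0.56 ± 0.87 in metl-5, both smaller than their errors.

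The other metallothionein, mtl-1 (WBGene00003473; chromosome V, 6691371 to 6691863, minus strand), was scarce, with 3 to 32 mRNA counts per library. Its mRNA was at 0.964, 0.689 and 0.487 CPM in WT at 20 °C and at 0.629, 1.92 and 1.65 CPM at 37 °C, so that the temperatures overlapped. In metl-5 worms it was at 0.209, 0.286 and 0.157 CPM at 20 °C and at 0.996, 0.551 and 0.926 CPM at 37 °C, without overlap. The log2 differences of 0.98 ± 0.69 in WT (adjusted p = 0.335) and 1.86 ± 0.75 in metl-5 (adjusted p = 0.0883, edgeR, n = 3 per group) did not pass the test. They were the highest among the 8 genes in mRNA and opposite in sign to those of mtl-2. Footprints of mtl-1 numbered 0 to 9 per library, did not pass the filter on low counts and were not tested. In WT they were at 0.419, 0.0778 and 0.452 CPM at 20 °C and at 1.06, 0.530 and 0.603 CPM at 37 °C. These WT groups did not overlap, with higher levels at 37 °C, but those rest on 4 to 6 counts. In metl-5 worms they were at 0.521, 0.245 and 0.284 CPM and at 0, 0.293 and 0.196 CPM, with overlap. In metl-5 37 °C replicate 1 the count was 0, where 3 counts would have been 0.623 CPM. mtl-1 and mtl-2 are related in sequence, and reads that mapped to several places were not counted in any gene, so low counts of mtl-1 are uncertain.

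The ferritin ftn-2 (WBGene00001501; chromosome I, 3680180 to 3680927, minus strand) had mRNA levels of 339, 215 and 457 CPM in WT at 20 °C and of 321, 288 and 452 CPM at 37 °C. In metl-5 worms these were 271, 246 and 439 CPM at 20 °C and 323, 270 and 311 CPM at 37 °C. The ranges of the temperatures overlapped almost fully, with log2 differences of 0.07 ± 0.29 and -0.08 ± 0.29 (adjusted p = 0.893 and 0.875). Footprints of ftn-2, by contrast, were at 479, 438 and 670 CPM in WT at 20 °C and at 153, 375 and 169 CPM at 37 °C. In metl-5 worms they were at 476, 407 and 756 CPM at 20 °C and at 144, 298 and 180 CPM at 37 °C. Each library at 37 °C lay below each at 20 °C in both strains. The fall of 1.40 ± 0.39 in log2 passed in metl-5 (adjusted p = 0.0232, edgeR, n = 3 per group), and the WT difference of -1.18 ± 0.39 did not (adjusted p = 0.0518). The translational efficiency of ftn-2 differed by -1.23 ± 0.51 in WT and -1.26 ± 0.51 in metl-5 (adjusted p = 0.0939 and 0.0826).

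The other ferritin, ftn-1 (WBGene00001500; chromosome V, 7546468 to 7547579, minus strand), which is expressed in the intestine and known to respond to iron, varied more between replicate numbers than between temperatures. Its mRNA was at 1.304, 0.492 and 5.03 CPM in WT at 20 °C and at 1.71, 0.660 and 7.55 CPM at 37 °C. In metl-5 worms it was at 0.419, 0.736 and 6.03 CPM at 20 °C and at 2.76, 0.367 and 5.39 CPM at 37 °C. Footprints were at 3.51, 2.33 and 7.83 CPM in WT at 20 °C and at 1.06, 0.884 and 5.88 CPM at 37 °C. In metl-5 worms the footprints were at 4.11, 1.63 and 10.53 CPM at 20 °C and at 0.208, 0.732 and 7.65 CPM at 37 °C, the first of these from 1 count. Temperatures overlapped in both assays and strains, although all 3 footprint libraries at 37 °C were lower than their numbered partners in each strain. No heat test of ftn-1 passed, with footprint differences of -0.81 ± 0.999 in WT and -0.93 ± 1.01 in metl-5 (adjusted p = 0.569 and 0.498, edgeR, n = 3 per group). ftn-1 and ftn-2 are related in sequence, and the far lower counts of ftn-1 are uncertain for the reason given for mtl-1.

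The importer smf-3 (WBGene00004878; chromosome IV, 2618869 to 2625503, plus strand) was a rare mRNA, with 6 to 39 counts per library. It was at 1.98, 1.48 and 0.920 CPM in WT at 20 °C and at 1.62, 0.420 and 0.472 CPM at 37 °C. In metl-5 worms it was at 1.99, 1.60 and 1.52 CPM at 20 °C and at 0.690, 1.04 and 0.926 CPM at 37 °C. The groups overlapped in WT but not in metl-5, and neither log2 difference passed (-0.82 ± 0.65 and -0.93 ± 0.64; adjusted p = 0.392 and 0.315, edgeR, n = 3 per group). Footprints of smf-3 were at 5.66, 3.03 and 2.86 CPM in WT at 20 °C and at 0.847, 2.48 and 0.754 CPM at 37 °C. In metl-5 worms they were at 5.73, 2.69 and 3.03 CPM and at 0.623, 2.197 and 0.981 CPM. All 3 footprint libraries at 37 °C were below the 3 at 20 °C in each strain, with log2 differences of -1.40 ± 0.55 in WT (adjusted p = 0.0823) and -1.54 ± 0.57 in metl-5 (adjusted p = 0.0617).

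The aconitase aco-1 (WBGene00000040; chromosome X, 11339874 to 11343327, plus strand) moved apart most clearly between the assays. Its mRNA was at 124, 98.1 and 121 CPM in WT at 20 °C and at 152, 109 and 202 CPM at 37 °C. In metl-5 worms it was at 97.4, 95.0 and 132 CPM at 20 °C and at 137, 128 and 193 CPM at 37 °C. Each library at 37 °C was above the library of the same number at 20 °C, but the groups overlapped and the log2 differences of 0.43 ± 0.25 and 0.49 ± 0.25 did not pass (adjusted p = 0.247 and 0.182). Footprints of aco-1 were at 324, 273 and 390 CPM in WT at 20 °C and at 52.9, 209 and 52.0 CPM at 37 °C. In metl-5 worms they were at 265, 220 and 403 CPM at 20 °C and at 57.1, 100.02 and 55.5 CPM at 37 °C. The footprints fell by 1.65 ± 0.48 in log2 in WT (adjusted p = 0.0402) and by 2.06 ± 0.49 in metl-5 (adjusted p = 0.0154, edgeR, n = 3 per group), without overlap in either strain.

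Of the 7 genes tested for translational efficiency, 1 passed in each strain, aco-1. Its translational efficiency fell by 2.06 ± 0.56 in log2 in WT (adjusted p = 0.0136) and by 2.5 ± 0.57 in metl-5 (adjusted p = 0.00401, edgeR over 24 libraries). Over all genes, 8.30% passed as lower in WT and 9.72% in metl-5, and 11% and 11.2% passed as higher, which 0 of the 7 genes did. The log2 ratio of footprints to mRNA of aco-1 was 1.2 ± 0.14 in WT at 20 °C (SD, n = 3) and -1.04 ± 1.52 at 37 °C. In metl-5 it was 1.08 ± 0.22 at 20 °C and -1.35 ± 0.69 at 37 °C. The ratio was thus above 0 in all libraries at 20 °C, and at 37 °C the highest value, 0.70, came from WT replicate 2. The median translational efficiency difference was -1.21 over the 7 genes in WT and -1.11 in metl-5, against -0.03 and -0.07 over all genes tested.

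**Figure D2:**
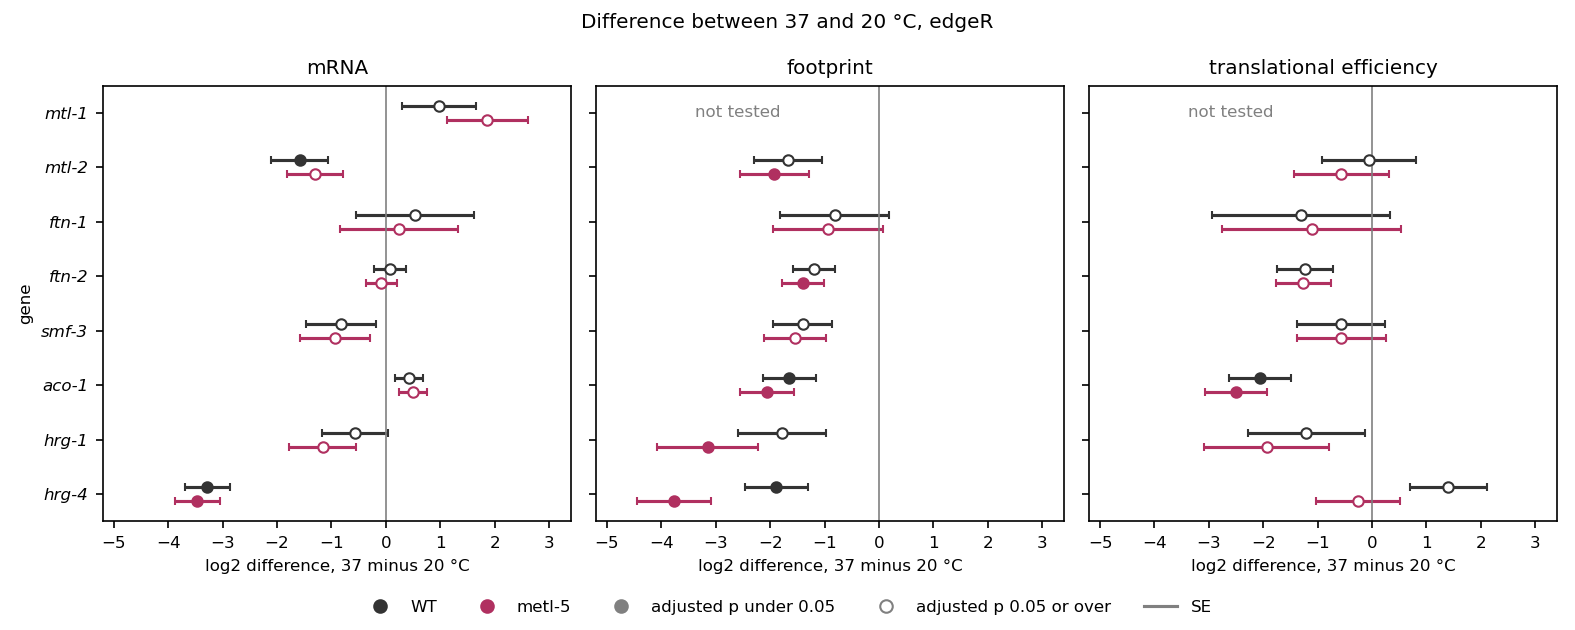
Log2 difference between 37 and 20 °C for each gene in mRNA, footprints and translational efficiency, with WT in black, metl-5 in red and bars of 1 SE either side. Filled points passed the test: hrg-4 and mtl-2 in WT and hrg-4 in metl-5 for mRNA, aco-1 and hrg-4 in WT and 5 genes in metl-5 for footprints, and aco-1 in both strains for translational efficiency.

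The heme importer hrg-4 (WBGene00009493; chromosome IV, 11030143 to 11030993, minus strand) fell most among the 8 genes in mRNA. It was at 14.6, 10.04 and 10.01 CPM in WT at 20 °C and at 1.44, 1.32 and 0.787 CPM at 37 °C. In metl-5 worms it was at 13.4, 11.7 and 9.13 CPM at 20 °C and at 1.46, 0.795 and 0.842 CPM at 37 °C. The groups lay far apart in both strains, with log2 differences of -3.28 ± 0.41 in WT and -3.46 ± 0.41 in metl-5 (adjusted p = 8.77e-05 and 5.50e-05, edgeR, n = 3 per group). Footprints of hrg-4 were at 19.9, 17.1 and 9.33 CPM in WT at 20 °C and at 2.12, 8.66 and 1.06 CPM at 37 °C, a log2 difference of -1.89 ± 0.58 (adjusted p = 0.0448). In metl-5 worms they were at 20.7, 21.5 and 10.1 CPM at 20 °C and at 1.25, 1.03 and 1.57 CPM at 37 °C, a log2 difference of -3.77 ± 0.68 (adjusted p = 0.0116). At 37 °C the footprints rest on 6 to 8 counts per metl-5 library and 7 to 98 per WT library. Translational efficiency of hrg-4 differed by 1.40 ± 0.71 in WT and by -0.26 ± 0.78 in metl-5 (adjusted p = 0.178 and 0.861). The WT value rested on replicate 2 at 37 °C, whose log2 ratio was 2.48 against 0.39 and 0.27 in the other libraries of its group, and it was -0.01 without that library.

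The heme transporter hrg-1 (WBGene00019830; chromosome X, 4008057 to 4016221, minus strand, overlapping mop-25.1 with 0 shared exonic bases) had mRNA levels of 21.03, 18.2 and 3.68 CPM in WT at 20 °C and of 6.29, 16.7 and 5.82 CPM at 37 °C. In metl-5 worms these were 14.8, 23.8 and 5.14 CPM at 20 °C and 4.90, 8.38 and 6.31 CPM at 37 °C. The groups overlapped, and the log2 differences of -0.57 ± 0.61 and -1.16 ± 0.61 did not pass (adjusted p = 0.540 and 0.195). Footprints of hrg-1 were at 31.8, 26.5 and 8.36 CPM in WT at 20 °C and at 1.06, 15.8 and 1.36 CPM at 37 °C. In metl-5 worms they were at 27.0, 17.3 and 7.87 CPM at 20 °C and at 1.04, 2.93 and 1.77 CPM at 37 °C. The footprints fell by 3.14 ± 0.93 in log2 in metl-5 (adjusted p = 0.0283, edgeR, n = 3 per group). In WT the groups overlapped through replicate 2 at 37 °C, and the difference of -1.78 ± 0.82 did not pass (adjusted p = 0.127).

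WT 37 °C replicate 2, which stood between the temperatures by its hsp-70 level, was the highest of the 3 WT footprint libraries at 37 °C for mtl-2, ftn-2, smf-3, aco-1, hrg-1 and hrg-4. Without it and metl-5 20 °C replicate 2, these 6 genes passed as lower in WT and the same 6 in metl-5. The WT log2 differences were then -4.17 for hrg-1 (adjusted p = 0.00212), -3.32 for hrg-4 (0.000852) and -2.64 for aco-1 (0.000310). They were -2.4 for mtl-2 (0.0110), -2.26 for smf-3 (0.0145) and -1.71 for ftn-2 (0.00295). The 2 libraries were picked by a heat shock gene, so leaving them out favours larger heat differences. Over all genes, WT footprints passing as higher and lower went from 1212 and 859 to 2385 and 2410. In metl-5 they went from 1507 and 1825 to 1994 and 2246. Without these 2 libraries translational efficiency also passed as lower for ftn-2 in both strains (-1.76 and -1.44; adjusted p = 0.00864 and 0.0277) and for hrg-1 in WT (-3.58, adjusted p = 0.0183). The WT footprint calls of aco-1 and hrg-4 were both lost without metl-5 20 °C replicate 1, metl-5 37 °C replicate 1, any one of the WT libraries at 20 °C, or WT 37 °C replicate 1 or 3, with an adjusted p of at most 0.166. The hrg-4 call was also lost without any other metl-5 library (adjusted p = 0.0520 to 0.0563), so it held only when WT 37 °C replicate 2 was the one left out. In metl-5, 0 of 7 footprint calls were left without metl-5 20 °C replicate 1, and 1, hrg-4, without metl-5 20 °C replicate 3 or metl-5 37 °C replicate 1 or 3. The mtl-2 call was lost as well without metl-5 37 °C replicate 2 (adjusted p = 0.0606), WT 20 °C replicate 3 (0.0538) or WT 37 °C replicate 1 (0.0517).

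Footprint libraries of the same replicate number varied together, and a fit with that number as a block called more of the 7 genes. In footprints of WT it called 5 in place of 2, adding mtl-2 (adjusted p = 0.0401), ftn-2 (0.0317) and hrg-1 (0.0419). In footprints of metl-5 it added smf-3 (adjusted p = 0.0493). For translational efficiency the block was each pair of same-numbered mRNA and footprint libraries of a group, a pairing that the main test did not use. This paired fit called 3 in each strain in place of 1, adding ftn-2 (adjusted p = 0.0347 in WT and 0.0383 in metl-5) and hrg-1 (0.0198 and 0.0189).

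Fold changes depend on how libraries are scaled. TMM factors of the mRNA libraries were 1.101 to 1.42 at 20 °C and 0.717 to 1.0 at 37 °C, and without them the median of all mRNA heat differences was -0.49 in WT and -0.60 in metl-5. The mRNA differences of aco-1 then were -0.07 and -0.10, so that the direction of aco-1 in mRNA depends on the scaling in both strains. Those of ftn-2 were -0.40 and -0.65, which changes the direction in WT only. Without the factors, genes passing as higher or lower in mRNA went from 1300 and 1132 to 627 and 2550 in WT, and from 1440 and 1220 to 561 and 3247 in metl-5. For translational efficiency the split went from 1333 and 1002 to 2352 and 441 in WT and from 1354 and 1174 to 2551 and 502 in metl-5. For footprints in WT it went from 1212 and 859 to 1501 and 716, and in metl-5 from 1507 and 1825 to 1753 and 1587. The translational efficiency call of aco-1 held without the factors.

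The second question was whether these genes differed between metl-5 mutants and WT. The strains also differed elsewhere: the genes ZK228.3 and ZK228.4 had 0 mRNA counts in the mutant libraries, and cTel55X.1 had 0 in the WT libraries. The deletion and other differences between the strains thus cannot be told apart. In mRNA, 0 of 8 passed at 20 °C, at 37 °C or in the interaction, the test of whether the heat differences of the strains differ. Over all genes, 0.0300% passed in mRNA at either temperature, and 0% in the interaction and in all strain comparisons of footprints and translational efficiency, where 0 of 7 passed. DESeq2 also called 0 of the genes described here in each of these comparisons. Over all genes, DESeq2 called 9, 7 and 0 in mRNA for the strains at 20 °C, at 37 °C and the interaction, 3, 0 and 0 in footprints, and 1, 3 and 0 in translational efficiency. The unadjusted p of edgeR was under 0.05 for 153, 233 and 92 genes in mRNA, for 86, 238 and 62 in footprints, and for 48, 164 and 79 in translational efficiency.

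Among the 8 genes the mRNA difference of metl-5 minus WT at 20 °C was furthest from 0 for mtl-1, at -1.66 ± 0.74 in log2 (unadjusted p = 0.0382, adjusted p = 1, edgeR), with the 3 mutant libraries below the 3 WT libraries. mtl-2 differed by -0.78 ± 0.51 at 20 °C and by -0.51 ± 0.51 at 37 °C. For the 6 iron and heme genes the mRNA differences ran from -0.08 to 0.22 at 20 °C and from -0.56 to 0.11 at 37 °C. Their SEs ran from 0.25 for aco-1 to 1.09 for ftn-1, and differences several times an SE could also miss the threshold. The deleted gene metl-5 itself did not pass between the strains in mRNA. Its log2 difference was -2.06 ± 0.39 at 20 °C and -1.38 ± 0.39 at 37 °C, with adjusted p-values of 0.139 and 1 by edgeR. For footprints of the gene metl-5 the difference was -2.04 ± 0.53 at 20 °C but -0.49 ± 0.52 at 37 °C. Footprint libraries metl-5 37 °C replicates 2 and 3, WT 37 °C replicate 3 and WT 20 °C replicate 2 held genes marking either strain. This limits the strain comparisons of footprints and translational efficiency. In footprints at 37 °C, hrg-4 differed by -1.71 ± 0.69 (unadjusted p = 0.0286, adjusted p = 0.99997) and hrg-1 by -1.71 ± 0.93. The WT values rested on replicate 2, and without it the differences were -0.27 for hrg-4 and 0.69 for hrg-1. The interaction of hrg-4 footprints was -1.89 ± 0.88 (unadjusted p = 0.0522, adjusted p = 0.99997), and -0.45 without WT 37 °C replicate 2. The authors' deposited tables gave all of these genes that they list an adjusted p of 0.999999 or 1 between the strains. For footprints at 37 °C the authors' deposited table gave log2 fold changes of -0.28 for hrg-4 and 0.67 for hrg-1.

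The third pattern was the replicate number, examined after the values were seen. Libraries numbered 3 held 5.03 to 7.55 CPM of ftn-1 mRNA, against 0.367 to 2.76 CPM in the 8 other mRNA libraries, and 5.88 to 10.53 CPM of its footprints, against 0.208 to 4.11 CPM. The level was thus highest in the library numbered 3 in each strain and temperature, by 2.04 in log2 over number 1 in mRNA and by 1.93 in footprints. mtl-2 mRNA was highest in the library numbered 1 in 4 of 4 groups, and number 3 was lower than number 1 by a log2 difference of -1.47. ftn-2 mRNA was lowest in number 2 in 4 of 4 groups and highest in number 3 in 3 of 4. hrg-1 mRNA went the other way, highest in number 2 and lowest in number 3 in 3 of 4 groups each.

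In the fit with number as a block, a test of any difference among the 3 numbers passed for mRNA of mtl-2 (adjusted p = 0.00607), ftn-1 (0.00625) and ftn-2 (0.0459), 3 of 8 genes, where 5.87% of all genes passed (edgeR). aco-1 and hrg-1 mRNA did not pass (adjusted p = 0.0612 and 0.0648). In footprints ftn-1 passed (adjusted p = 0.0299), 1 of 7 genes, where 3.04% of all genes did. Without the 2 footprint libraries between the temperatures ftn-1 did not pass in footprints (adjusted p = 0.0641), nor without any one of 7 libraries: metl-5 20 °C replicate 3, metl-5 37 °C replicates 2 and 3, WT 20 °C replicates 1 and 3, and WT 37 °C replicates 1 and 3 (0.0503 to 0.0728). The ftn-2 call in mRNA was lost without any one of the 6 WT libraries, metl-5 20 °C replicate 2 or 3, or metl-5 37 °C replicate 1 or 2 (0.0691 to 0.148), and with RLE scaling (0.0501) or without scaling factors (0.125). The labels do not say what the number stands for.

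**Figure D3:**
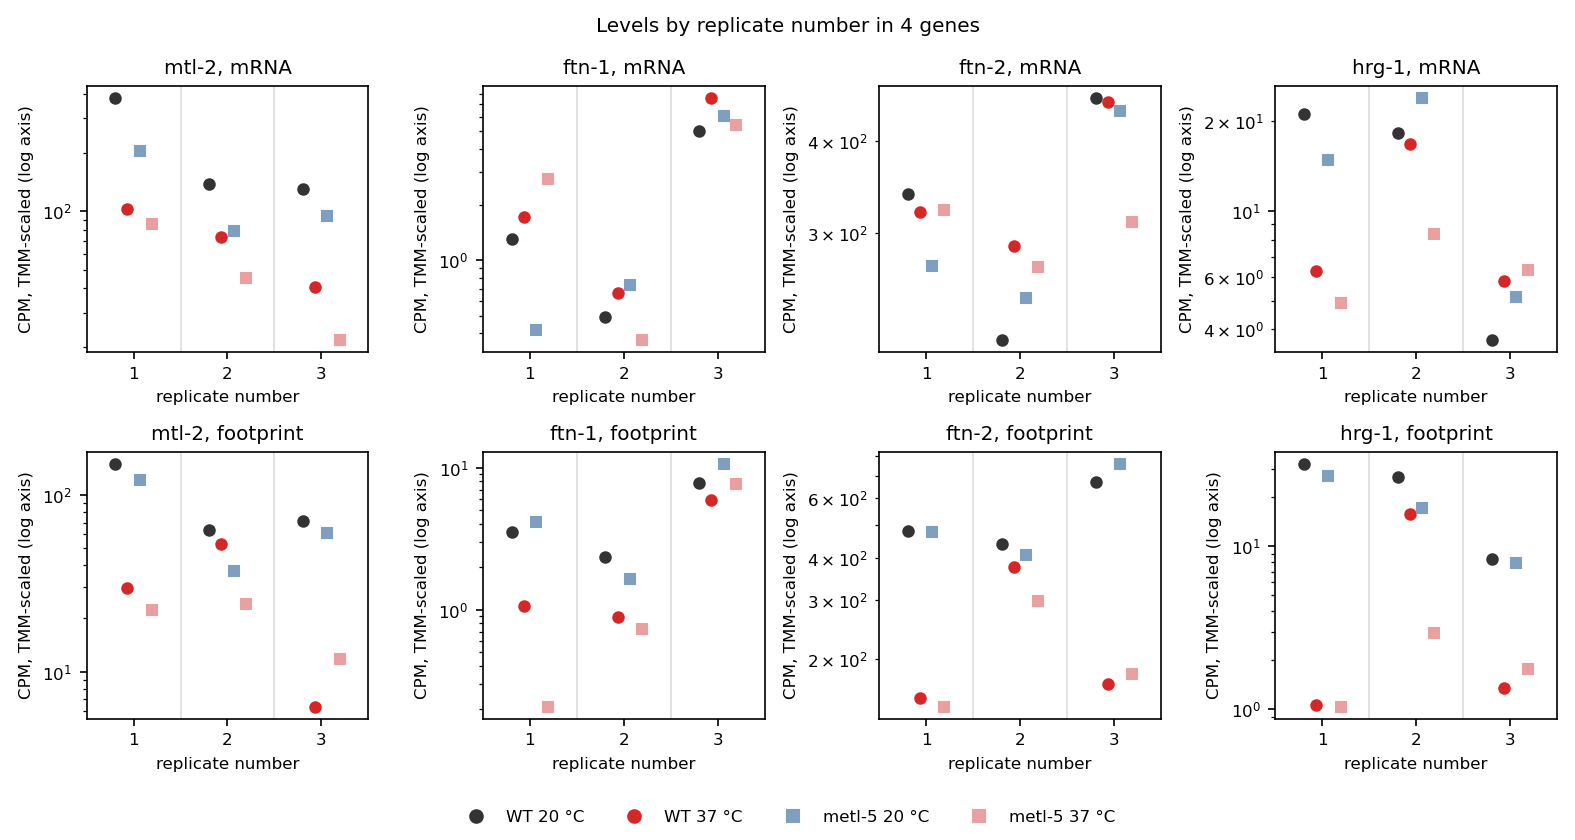
TMM-scaled CPM on log axes of mtl-2, ftn-1, ftn-2 and hrg-1 by replicate number, mRNA above and footprints below, with 1 point for each library. ftn-1 is highest in number 3 in all 4 groups of both assays, and mtl-2 mRNA is highest in number 1 in all 4 groups.

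Over the 12 mRNA libraries, the genes most like each member by Pearson correlation of log2 CPM are given as a description. For mtl-2 these were R09F10.1, F35E12.10 and W03G11.4 (r = 0.918, 0.916 and 0.914), and for mtl-1 dcaf-13, mrps-6 and K10D2.8 (0.861, 0.851 and 0.850). For ftn-1 they were ptp-5.1, acdh-9 and kat-1 (0.938, 0.921 and 0.919), and for ftn-2 Y73F8A.14, C17F3.1 and T16G1.13 (0.962, 0.943 and 0.935). smf-3 was most like unc-36, F35H10.10 and paic-1 (0.912, 0.889 and 0.886), and aco-1 most like endu-2, dlat-1 and alh-8 (0.963, 0.961 and 0.960). hrg-1 was most like mrp-5, a heme exporter, Y110A7A.9 and klp-12 (0.941, 0.939 and 0.935). hrg-4 was most like AC3.5, C01H6.4 and goa-1 (0.991, 0.979 and 0.977). All of these correlations share the same libraries, temperature and replicate number.

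Other genes of metal and heme handling were read from lists, most of them short, so that 1 gene alone is a large share of a list. Over all genes 9.76% rose and 8.50% fell in mRNA in WT, and 10.8% and 9.16% in metl-5. In footprints 9.78% rose and 6.93% fell in WT, and 12.2% and 14.7% in metl-5. For translational efficiency 11% rose and 8.30% fell in WT, and 11.2% and 9.72% in metl-5. Of 8 tested genes of iron transport and mitochondrial iron, 2 rose and 1 fell in mRNA in both strains. The ferroportin-like exporter genes fpn-1.1 and fpn-1.2 parted: fpn-1.2 mRNA fell by 3.27 ± 0.70 in WT and by 2.65 ± 0.66 in metl-5, and fpn-1.1 mRNA rose by 1.16 ± 0.28 and 1.02 ± 0.28. The mitochondrial aconitase gene aco-2 rose by 0.88 ± 0.25 and 0.89 ± 0.25 in mRNA. Without TMM factors neither aco-2 nor fpn-1.1 passed in mRNA. In footprints, 1 of the 8 rose and 1 fell in WT, and 2 rose and 2 fell in metl-5. fpn-1.1 footprints fell by 1.41 ± 0.41 in WT and by 1.82 ± 0.42 in metl-5, opposite to its mRNA, and its translational efficiency differed by -2.55 ± 0.50 and -2.79 ± 0.51, past the test in both. fpn-1.2 footprints fell by 4.26 ± 0.81 in metl-5. The frataxin gene frh-1, which serves iron-sulfur cluster assembly, rose in footprints by 1.08 ± 0.27 and 0.94 ± 0.27 and in translational efficiency by 1.34 ± 0.39 and 1.28 ± 0.39.

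Of 8 tested heme genes, 1 fell in mRNA in each strain and 0 rose. This was hrg-7, which encodes a secreted protease-like heme signal and whose mRNA differed by -2.19 ± 0.52 in WT and -2.55 ± 0.53 in metl-5. In footprints 0 of 8 passed in WT and 2 fell in metl-5, hrg-7 by 4.1 ± 1.002 and mrp-5 by 1.45 ± 0.50. Without the 2 footprint libraries between the temperatures, hrg-7 and mrp-5 passed as lower in WT too (-4.79 and -1.79, adjusted p = 0.000654 and 0.0128, edgeR). These 2 libraries were picked by the heat shock gene hsp-70, which favours such calls. Translational efficiency passed for 0 of 8 heme genes in either strain with all libraries, and for hrg-7 in WT without those 2 (-2.58, adjusted p = 0.0356).

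Of the 4 genes of the hypoxia pathway, which in worms also controls ferritin, 3 fell in mRNA in both strains, where 8.50% of all genes fell in WT and 9.16% in metl-5. The oxygen sensor gene egl-9 differed by -2.06 ± 0.35 in WT and -2.24 ± 0.35 in metl-5, rhy-1 by -1.68 ± 0.48 and -1.93 ± 0.48, and the transcription factor gene hif-1 by -0.95 ± 0.23 and -0.92 ± 0.23. In footprints 2 of the 4 fell in WT and 3 in metl-5, and translational efficiency passed for 0. Of 7 regulators of intestine and stress, 1 rose and 2 fell in mRNA in both strains. The mRNA difference of daf-16, the factor of insulin signalling, was -1.51 ± 0.27 in WT and -1.73 ± 0.28 in metl-5, and that of mdt-15, a Mediator subunit, was -1.25 ± 0.24 and -1.37 ± 0.24. The stress factor gene pqm-1 rose by 1.28 ± 0.35 and 1.13 ± 0.35, though pqm-1 did not pass without TMM factors. Footprints of elt-2, a GATA factor of the intestine, differed by -1.37 ± 0.31 in WT and -1.81 ± 0.32 in metl-5. Those of mdt-15 differed by -1.18 ± 0.36 and -1.56 ± 0.36, and those of elt-7 by -1.6 ± 0.40 in metl-5, all past the test. Translational efficiency rose for 2 of the 7 in WT, daf-16 (1.09 ± 0.34) and hsf-1 (1.17 ± 0.38), and for 3 in metl-5.

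Among 7 tested cadmium response genes, 1 rose in mRNA in each strain and 0 fell. cdr-4, known to be induced by cadmium and other stresses, rose by 2.95 ± 0.40 in WT and 3.13 ± 0.40 in metl-5, while mtl-2 did not rise. In footprints 0 of the 7 passed in WT and 1 fell in metl-5, cdr-7 by 0.93 ± 0.32. Of 18 tested zinc transport genes, 1 rose and 4 fell in mRNA in both strains, and 2 rose and 0 fell in footprints. The counts of genes that rose are near the shares over all genes, 9.76% and 10.8% in mRNA and 9.78% and 12.2% in footprints. The transporter gene zipt-1 fell in mRNA, with differences of -1.49 ± 0.29 in WT and -1.53 ± 0.29 in metl-5, and rose in footprints by 1.70 ± 0.34 and 1.63 ± 0.34. Its translational efficiency rose by 3.21 ± 0.47 and 3.22 ± 0.47, the opposite direction to aco-1 and fpn-1.1. zipt-13 rose in mRNA by 1.499 ± 0.36 and 1.6 ± 0.36, and its translational efficiency fell by 2.31 ± 0.53 in WT. Over the zinc list, translational efficiency rose for 5 genes in WT and 6 in metl-5 and fell for 2 in each. Of 4 copper genes, 0 passed in mRNA and 1 rose in footprints in each strain, cutc-1 by 0.80 ± 0.24 and 0.81 ± 0.24. Translational efficiency rose for 1 copper gene in WT and 2 in metl-5. In every list named here, 0 genes passed between the strains or in the interaction by edgeR.

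**Figure D4:**
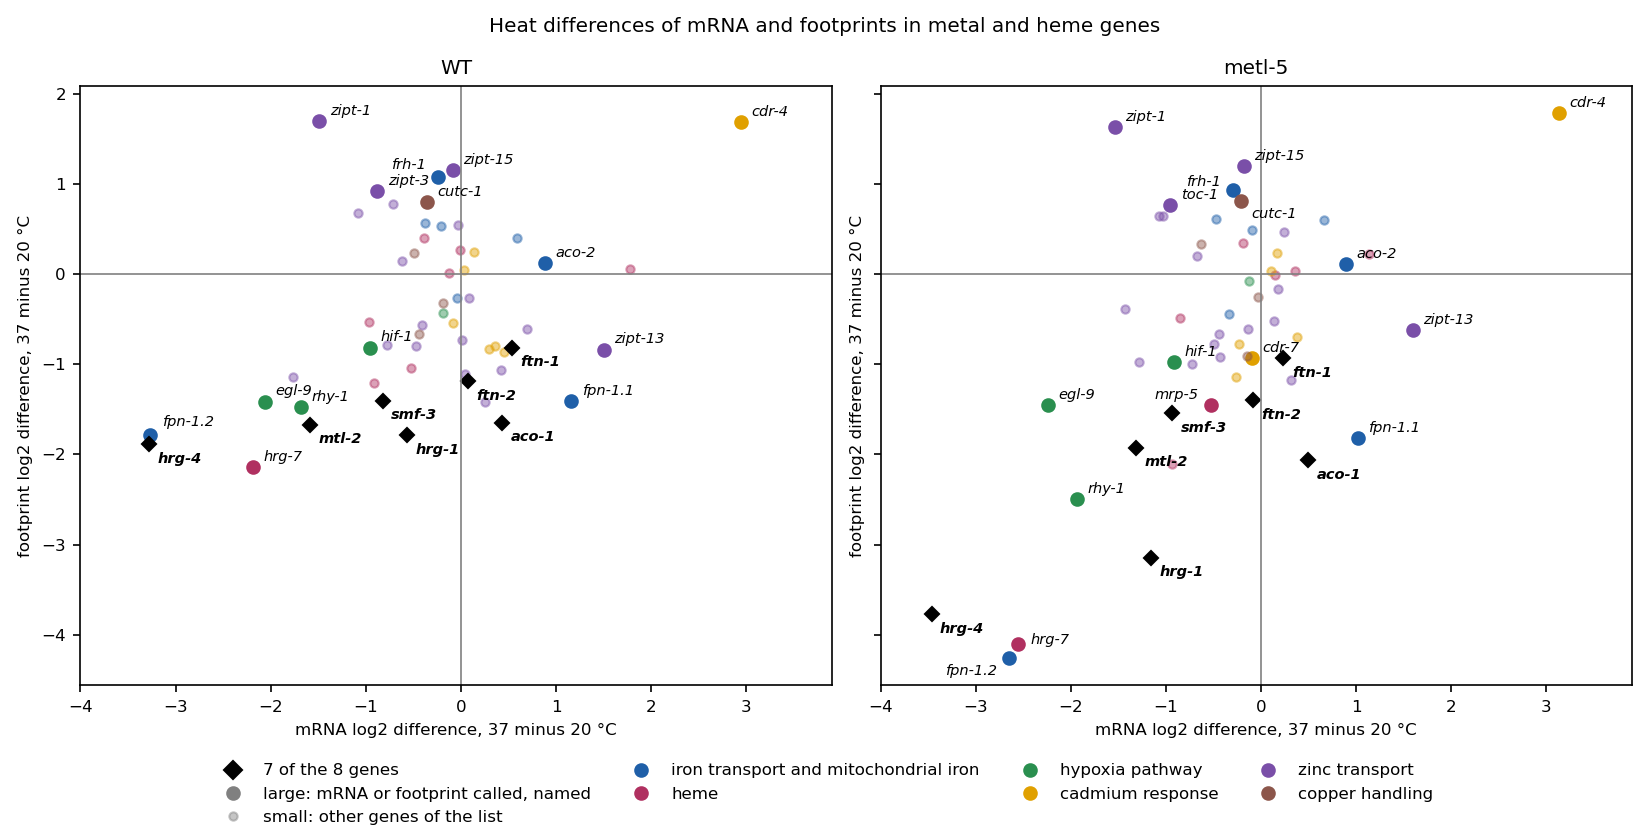
Log2 difference between 37 and 20 °C in mRNA (x axis) and in footprints (y axis) for the genes of the metal and heme lists, coloured by list, and for 7 of the 8 genes described first (black diamonds), in WT on the left and metl-5 on the right. Large named points passed the test in mRNA or footprints. The diamonds all lie below 0 on the footprint axis, and zipt-1 lies above 0 in footprints and below 0 in mRNA.

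Markers of the intestine, where many of these genes are known to act, were read beside them. All 11 were detected in every group, with 0 at 0 counts. Their summed footprint level was 2521 to 3761 CPM in WT at 20 °C and 1479 to 2396 CPM at 37 °C, and 2396 to 3973 CPM against 1279 to 2345 CPM in metl-5. In mRNA the sum was 992 to 1475 CPM against 1249 to 1438 CPM in WT and 1030 to 1072 CPM against 1088 to 1183 CPM in metl-5. Of the 11 markers, 2 fell and 0 rose in footprints in WT, and 3 fell and 0 rose in metl-5. In mRNA 3 rose and 2 fell in WT, and 3 rose and 3 fell in metl-5. In WT, pho-1 was lower by 1.81 ± 0.35 and pept-1 by 2.21 ± 0.47, while ifc-2 was among those higher, by 0.78 ± 0.22. Yolk genes, also made in the intestine, summed to 30492 to 38710 CPM of footprints in WT at 20 °C and 6356 to 24210 CPM at 37 °C. In metl-5 the yolk sum was 28053 to 49047 CPM of footprints at 20 °C and 7952 to 19505 CPM at 37 °C, and 5 of the 6 yolk genes fell. In WT 0 of 6 passed, but the median footprint difference of the list was -1.54 against -1.85 in metl-5, and 0 of 6 passed in the interaction. In mRNA the yolk sum was 13627 to 16661 CPM in WT at 20 °C and 16344 to 23963 CPM at 37 °C. In metl-5 it was 13929 to 21424 and 21980 to 29003 CPM of mRNA, and 1 of 6 rose and 0 fell in mRNA in each strain. The part of intestinal transcripts as a whole in the lower footprints of the 7 genes was not tested.

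Markers of other tissues also moved with heat. Of 5 muscle markers 3 rose in mRNA in each strain and 0 passed in footprints. Of 5 hypodermis markers 3 rose and 1 fell in mRNA in each strain, while in footprints 1 fell in WT and 2 in metl-5. Their sum was 1564 to 2483 CPM of mRNA in WT at 20 °C and 3649 to 7070 CPM at 37 °C, against 1728 to 2529 and 240 to 1109 CPM of footprints. Of 5 neuron markers 1 fell in mRNA and in footprints in each strain and 0 passed as higher. The median mRNA difference of these 5 was nevertheless 0.59 in WT and 0.64 in metl-5, and that of footprints 0.18 and 0.32. Their mRNA sum was 129 to 200 CPM in WT at 20 °C and 220 to 286 CPM at 37 °C. Of 5 germline markers 0 passed in mRNA, and 1 rose in footprints in each strain and 1 fell in metl-5. For translational efficiency, 4 hypodermis markers fell in WT and 3 in metl-5, and 1 rose in each (medians -2.47 and -2.12). Of the muscle markers 2 fell and 0 rose in each strain (medians -0.67 and -0.81). Of the neuron markers 0 fell, and 1 rose in metl-5. Of the germline markers 0 fell and 1 rose in each strain. The part of a change in tissue makeup in the results for the 8 genes was not tested.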

How the data were processed

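For each library the authors deposited a file of raw read counts per gene, laid out as STAR writes them. The submitters' processing notes name STAR and DESeq2 but no version. The sources used here do not give the build, annotation or library protocol behind the counts. Sense-strand counts were used for footprints (99.6 to 99.9% of stranded counts were sense) and unstranded counts for mRNA (50.5 to 50.9%), where reads over genes on opposite strands cannot be told apart. Reads assigned to no single gene (19.5 to 27.1% of an mRNA library, 14.7 to 52.0% of a footprint library) stayed out of library sizes. Tables deposited by the authors hold log2 fold changes and adjusted p-values between strains, and entered no test.

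Groups follow the labels' strain and temperature. Genes were filtered with filterByExpr, scaled with TMM and tested with edgeR 4.0.16 (R 4.3.3; quasi-likelihood, all 12 libraries of an assay or all 24 for translational efficiency, adjusted p under 0.05): 13315 genes in mRNA, 12387 in footprints and 12079 for translational efficiency. Of the 8 genes, 7 passed the filter in footprints and 8 in mRNA. CPM used a prior count of 2 only for log2 levels, and positions and exon lengths came from the Ensembl WBcel235 annotation, which holds 19568 of the genes. SEs are the log2 difference divided by the square root of edgeR's F. Log2 ratios of footprints to mRNA were centred on the median of genes with a mean count of at least 10.

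The members, the gene lists, the alternatives and the libraries to leave out were chosen with earlier results of these data known. Named list genes are up to 3 of those called with the smallest p, and likeness took genes with a mean log2 CPM of at least 1. The list genes smf-1, fpn-1.3, cdr-5, numr-2, sur-7 and zipt-2.1 were not analysed here. Same-numbered libraries deviated together in all 12 footprint pairs (r = 0.157 to 0.601) and all 12 pairs of mRNA with footprints (0.128 to 0.651), so the number pairs these. In mRNA 9 of 12 pairs exceeded 0.1. Alternatives were DESeq2 1.42.0, limma 3.58.1 for paired ratios, other scalings and filters, strand, the replicate block and leaving out libraries. For translational efficiency the replicate block was each pair of mRNA and footprint libraries. The fitting code was tested on data with known changes.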

Additional observations from a re-analysis of the deposited data

How the results depend on the processing

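Values recomputed over all alternatives numbered 876 in mRNA, 921 in footprints and 1215 in translational efficiency. Of these, 848, 836 and 1193 kept their side of the threshold, 0 called values reversed, and 71, 80 and 137 uncalled values changed sign. They include the strain and interaction values, of which 0 passed under any setting, so these shares do not measure how stable the calls were. The WT footprint calls of hrg-4 and aco-1 held in 9 and 14 of 23 settings. Those in metl-5 held in 15 (mtl-2) to 21 (hrg-4) of 23. The mRNA fall of hrg-4 and the translational efficiency fall of aco-1 passed under every alternative run. For translational efficiency, leaving out the libraries numbered 3 was not among these. In footprints aco-1 did not pass without them (adjusted p = 0.328 in WT and 0.150 in metl-5, edgeR). The cause of the changes below was not tested. Leaving out the libraries numbered 3, and the block without the 2 libraries, were chosen after seeing the data. In mRNA, WT heat called 1 gene in place of 2 without the 4 libraries numbered 3, and 1 to 2 with 1 library left out. metl-5 heat called 2 in place of 1 with DESeq2, no scaling factor or no filter, 3 with the replicate block (mtl-2 and hrg-4 lower, aco-1 higher by 0.49, adjusted p = 0.0405) and 1 to 2 with 1 library left out. WT mRNA heat called 2 with the block. Within mRNA, same-numbered libraries deviated together between strains (r = 0.146 to 0.514) and only in part between temperatures (-0.027 to 0.395, 3 of 6 pairs over 0.1). WT footprints called 4 in place of 2 with DESeq2, 1 with no scaling factor, 5 with the block, 0 with only the groups compared, 6 without the 2 libraries between the temperatures (also with the block), 4 without the 6 footprint libraries that stood apart (a setting that leaves 1 footprint library in each 37 °C group, assumed to vary like the other groups), 0 without those numbered 3 and 0 to 6 with 1 library left out. metl-5 footprints called 6 in place of 5 with DESeq2, the block or only the groups compared. They also called 6 without the 2 libraries, with or without the block. Without those numbered 3 they called 0, and with 1 left out 0 to 6. Translational efficiency in WT called 3 in place of 1 with the block or without the 2 libraries, 4 with both, 2 without the 6 or with limma, and 1 to 3 with 1 left out. In metl-5 it called 3 with the block, 2 with only the groups compared, without the 2, without the 6 or with limma, 3 with block and without the 2, and 1 to 2 with 1 left out. The replicate number test called 5 in place of 3 in mRNA with DESeq2 and 2 to 4 with 1 left out, and in footprints 0 in place of 1 without the 2 libraries and 0 to 1 with 1 left out. The block changed no other call, and strain and interaction calls stayed at 0. Over all genes, WT footprint heat called 118 of 11969 with only the groups compared and 0 without those numbered 3, against 1212 higher and 859 lower. Footprint depth at 37 °C limits mtl-1, ftn-1, hrg-1, hrg-4 and smf-3, whose lowest counts were 0 to 6. Without the 6 footprint libraries, the WT 37 °C library left was replicate 1, which had the lowest depth and the most unmapped reads.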
